A study of Mus musculus with 16 samples.

Results

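The genes of the NF-kB subunits are Rela (encoding p65), Relb (RelB), Rel (c-Rel), Nfkb1 (p105, the precursor of p50) and Nfkb2 (p100, the precursor of p52). They were chosen by name as the complete subunit family. Of these 5 genes, 4 had a probe set bearing their symbol in the platform annotation, and they are described here among 15908 genes tested. Nfkb1 was not analysed here. Each of the 4 had 1 probe set: 10460631 for Rela and 10463599 for Nfkb2, both on chromosome 19, 10560575 for Relb on chromosome 7 and 10384725 for Rel on chromosome 11. All 4 lay above the 30th percentile of the array, the floor used to keep a probe set, on 16 of 16 arrays.

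NF-kB proteins bind DNA in pairs at kappaB sites. In resting cells IkB proteins hold the pairs in the cytoplasm. When LPS, a bacterial endotoxin, is sensed by TLR4, the IKK kinase complex marks IkB for destruction, and p65 with p50 enters the nucleus. A slower, non-canonical arm uses the kinase NIK (Map3k14) to cut p100 to p52, the usual partner of RelB. In liver, p65 is known for driving acute-phase and cytokine genes and for protecting hepatocytes from TNF-induced death.

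RNA of whole liver from male mice was measured on 16 whole-transcript arrays, 4 in each of 4 groups. These were homozygous p65 S534A knock-in mice given 1 mg/kg LPS, untreated S534A mice, wild-type (WT) C57Bl6/J mice given 1 mg/kg LPS, and untreated WT mice. The knock-in exchanges a serine codon of Rela for alanine in every cell. The labels describe it as made in PTL1 embryonic stem cells, with a FRT-flanked Neo cassette excised by FLPe and 5 backcrosses to C57Bl6/J. They mention a loxP site in the targeting cassette and ESC clones without saying which clone gave the mice. No group received vehicle alone, and the sources used here give no time after LPS. The series design line writes the LPS dose beside the untreated S534A group too, and the sample titles were followed. The labels do not say that samples of a group are separate animals, so p-values measure sample-to-sample spread, part or all of which may be technical.

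Array medians lay between 6.25 and 6.42 on the log2 scale. Of the variance, 78.5% lay on a leading principal component that parted treated from untreated arrays, at 40.3 to 44.2 in S534A with LPS, -41.0 to -39.6 in untreated S534A, 34.5 to 42.0 in WT with LPS and -44.0 to -40.0 in untreated WT. The 9 measured hepatocyte markers averaged between 13.43 and 13.64 on every array, near the upper end of the scale (14.54), as the liver label requires. A single codon change leaves transcript level uninformative about genotype, so Rela could not check the genotype labels. In whole tissue, fewer cells of a type and less RNA per cell cannot be told apart.

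The start regions of the members are shown because 3 of the 4 measured genes rise with LPS in both genotypes and kappaB motifs in them are a known feature of this family. The windows are from RefSeq (GRCm38.p6), each with 250 bases before and 50 after an annotated start. Such a window was given for 3 of the 5 genes, and Relb and Nfkb1 had none. Capitals mark matches of the 10-base kappaB consensus, searched on both strands, and touching or overlapping matches run together.
Nfkb2, chr19:46304487-46304786, plus strand: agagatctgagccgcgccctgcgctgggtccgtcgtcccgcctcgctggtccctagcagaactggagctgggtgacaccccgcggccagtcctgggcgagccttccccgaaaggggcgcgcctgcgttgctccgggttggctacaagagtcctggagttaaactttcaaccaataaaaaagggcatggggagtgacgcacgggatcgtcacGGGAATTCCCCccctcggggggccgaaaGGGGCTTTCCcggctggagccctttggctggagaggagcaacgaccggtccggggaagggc
Nfkb2, chr19:46305445-46305744, plus strand: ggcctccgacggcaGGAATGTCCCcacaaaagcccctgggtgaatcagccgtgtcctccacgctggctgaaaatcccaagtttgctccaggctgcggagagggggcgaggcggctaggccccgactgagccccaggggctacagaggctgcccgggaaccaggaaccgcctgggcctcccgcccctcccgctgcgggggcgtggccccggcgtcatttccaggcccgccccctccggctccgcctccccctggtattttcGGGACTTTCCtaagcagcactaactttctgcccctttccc
Rel, chr11:23770920-23771219, minus strand: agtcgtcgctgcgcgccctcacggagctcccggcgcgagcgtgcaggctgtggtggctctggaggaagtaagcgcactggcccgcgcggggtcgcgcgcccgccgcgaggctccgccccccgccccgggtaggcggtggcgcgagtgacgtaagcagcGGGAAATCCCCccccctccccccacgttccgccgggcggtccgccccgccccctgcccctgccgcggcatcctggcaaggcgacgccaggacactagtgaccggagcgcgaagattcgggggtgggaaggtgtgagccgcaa
Rela, chr19:5637291-5637590, plus strand: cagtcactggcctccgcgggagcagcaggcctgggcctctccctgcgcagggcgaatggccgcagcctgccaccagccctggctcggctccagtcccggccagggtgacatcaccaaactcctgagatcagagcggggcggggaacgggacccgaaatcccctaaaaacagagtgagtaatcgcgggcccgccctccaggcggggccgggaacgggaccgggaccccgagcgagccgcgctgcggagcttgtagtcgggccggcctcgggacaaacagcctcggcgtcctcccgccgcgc
The upstream Nfkb2 window held matches that begin 39 and 38 bases before the start, which overlap, and another 11 bases before it. The downstream Nfkb2 window held matches 236 bases before its start and 10 bases after it, and the site after the start recurs in a further Nfkb2 window. Rel held overlapping matches that begin 92 and 91 bases before its start. No match to these letters lay in the Rela window. Of 32851 windows of this length in the table, 8.46% held a match, against 4 of the 5 member windows, 3 of which belong to Nfkb2. Counted by gene, 9.55% of 27025 genes held a match, and of the members with a window Nfkb2 and Rel did and Rela did not. A match describes letters only, and binding was not measured.

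Nfkb2 had the largest measured response to LPS of the 4 subunit genes, followed by Rela and Relb, and these 3 rose in both genotypes. Rel rose in WT livers and did not pass the test in S534A livers. Values below are log2 levels per array in replicate order, and changes are log2 differences ± the standard error of the limma fit with n = 4 per group. Levels of different genes come from different probes and are not set against each other.

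Rela stood at 11.38, 11.43, 11.37 and 11.41 in S534A livers with LPS, against 9.92, 10.00, 9.88 and 10.13 in untreated S534A livers. In WT livers it stood at 11.42, 11.31, 11.37 and 11.47 with LPS and at 10.03, 10.27, 10.06 and 10.34 untreated. Every treated array lay above every untreated one of its genotype. The 4 treated S534A arrays spanned 0.07, a narrower band than the 0.16 of treated WT arrays. Rela rose by 1.41 ± 0.08 in S534A (2.66-fold, 95% interval 1.25 to 1.58, limma adjusted p = 2.75e-10). In WT it rose by 1.22 ± 0.08 (2.33-fold, 95% interval 1.05 to 1.38, limma adjusted p = 1.66e-09). Relative to all genes the change ranked 445 from the top in S534A and 567 in WT of 15908.

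Relb, whose protein acts mostly with p52, stood at 7.06, 7.26, 7.02 and 7.19 in S534A livers with LPS, against 6.15, 6.39, 6.60 and 6.32 in untreated ones. It stood at 7.25, 7.16, 7.06 and 7.17 in WT livers with LPS, against 6.52, 6.42, 6.46 and 6.26 untreated. The groups did not overlap in either genotype, although untreated S534A arrays spread over 0.45, the widest range of the 4 groups for this gene. Relb rose by 0.77 ± 0.09 in S534A (1.70-fold, limma adjusted p = 2.89e-06) and by 0.74 ± 0.09 in WT (1.68-fold, limma adjusted p = 4.10e-06).

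Rel encodes c-Rel, best known from lymphocytes and myeloid cells. It stood at 8.94, 8.71, 8.90 and 8.87 in S534A livers with LPS, against 8.74, 8.67, 8.67 and 8.68 in untreated S534A livers. In WT livers it stood at 9.11, 9.06, 8.72 and 8.78 with LPS and at 8.22, 8.40, 8.42 and 8.24 untreated. The WT groups did not overlap, while in S534A the lowest treated array (8.71) fell below the highest untreated one (8.74). Rel rose by 0.60 ± 0.09 in WT (1.52-fold, 95% interval 0.41 to 0.79, limma adjusted p = 3.03e-05). In S534A the difference was 0.16 ± 0.09 (1.12-fold, -0.02 to 0.35, limma adjusted p = 0.150). The S534A call depends on scaling: it passed after a second quantile normalization (0.23, limma adjusted p = 0.0278), after centring on the genes tested (0.33, limma adjusted p = 0.00583) and after quantile normalization of those genes (0.29, limma adjusted p = 0.00686), and not after centring on the whole array (0.07, limma adjusted p = 0.595).

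Nfkb2 encodes p100, which is both the source of p52 and an inhibitor of other subunits in its uncut form. It stood at 9.89, 9.79, 9.54 and 9.67 in S534A livers with LPS, against 7.52, 7.65, 7.67 and 7.69 untreated. In WT livers it stood at 9.68, 9.79, 9.69 and 9.82 with LPS, against 7.81, 7.65, 7.69 and 7.46 untreated. The gap between the groups was many times the spread within them in both genotypes. Nfkb2 rose by 2.09 ± 0.09 in S534A (4.25-fold, limma adjusted p = 5.11e-12), with the same rounded size in WT (4.25-fold, limma adjusted p = 4.75e-12).

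**Figure D1:**
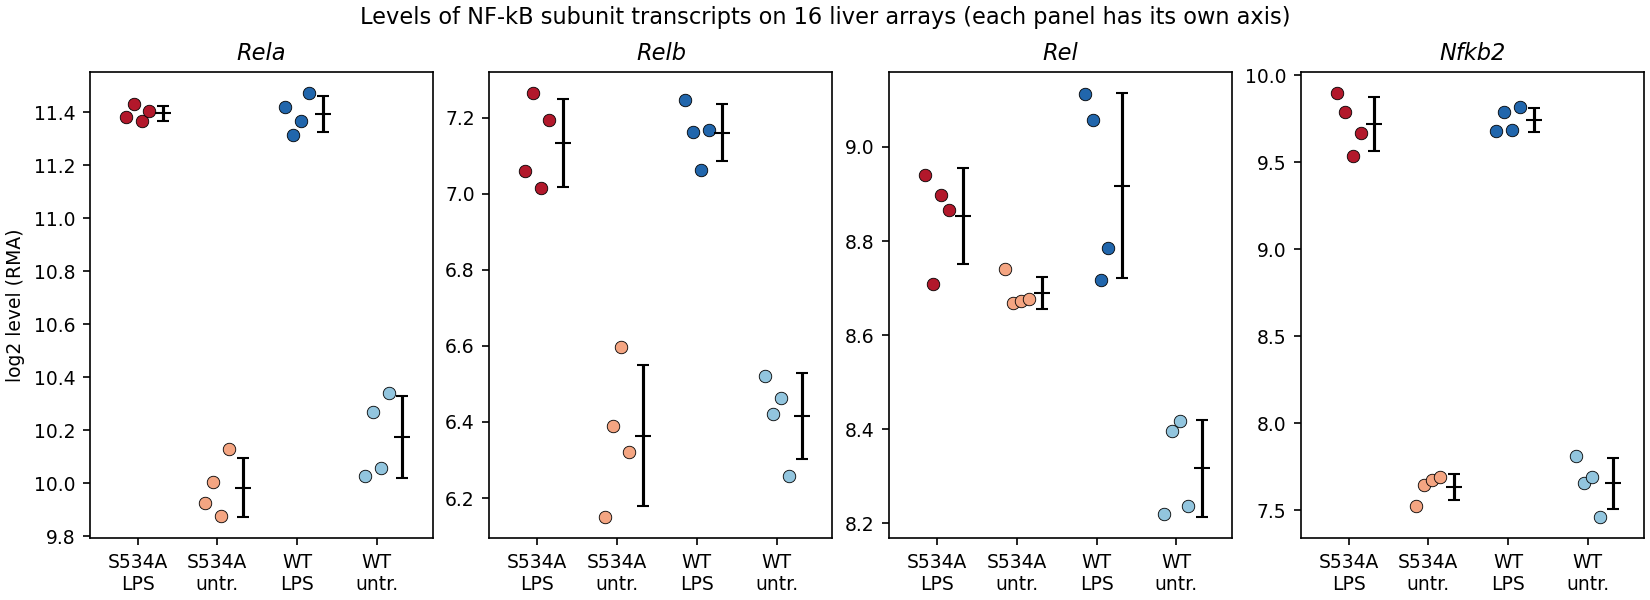
Log2 level of Rela, Relb, Rel and Nfkb2 on each of the 16 arrays, by group, with the group mean and SD beside the points (n = 4). Each panel has its own axis; treated and untreated arrays separate for Rela, Relb and Nfkb2 in both genotypes, and for Rel the untreated S534A arrays lie at 8.67 to 8.74, above the untreated WT arrays at 8.22 to 8.42.

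These counts read against a broad response of the liver. Past the threshold (limma, adjusted p under 0.05), 14.2% of all genes were higher and 31.2% lower with LPS in S534A livers, and 14.9% were higher and 29.9% lower in WT livers. Of the 4 subunit genes 3 were higher in S534A and 4 in WT, and none was lower in either. Groups did not overlap for 48.1% of all genes in S534A and for 38.3% in WT. Over all genes the median change was -0.03 in S534A and -0.05 in WT, against changes of 0.16 to 2.09 for the members in S534A and 0.60 to 2.09 in WT. With array medians set equal, the median over all genes stood at -0.13 in S534A and -0.16 in WT, and the calls were 1703 higher and 6231 lower in S534A, in place of 2258 and 4967, and 1838 higher and 6493 lower in WT, in place of 2377 and 4762. Centring on the genes tested moved that median to 0.13 in S534A and 0.08 in WT, with 4595 higher and 3370 lower in S534A and 3510 higher and 3254 lower in WT. Rela, Relb and Nfkb2 passed as higher under both scalings in both genotypes.

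The measured sizes of the responses differed between subunit genes. Each gene is read by its own probe set, and how fully each probe set reports a change was not assessed. Differences of log2 values within an array were compared between treated and untreated arrays by an exact permutation test over 70 arrangements, for 6 pairs of genes in each genotype, with adjustment over the 12. In S534A livers the change of Nfkb2 exceeded that of Rela by 0.68, that of Relb by 1.32 and that of Rel by 1.92. The change of Rela exceeded that of Relb by 0.64 and that of Rel by 1.25, and the change of Relb exceeded that of Rel by 0.61. In WT livers Nfkb2 exceeded Rela by 0.87, Relb by 1.34 and Rel by 1.49, and Rela exceeded Relb by 0.47 and Rel by 0.62. All of these had an exact p of 0.0286, the smallest this design allows, and an adjusted p of 0.0312. Relb and Rel could not be parted in WT, where their changes differed by 0.14 (exact permutation p = 0.171). Leaving out 1 treated array at a time raised the adjusted exact p of Rela against Relb in WT (any of the 4) and of Rela against Rel in WT (array 3 or 4) to 0.0623, with differences of 0.39 to 0.58 and 0.55 to 0.70 over all arrays left out. The same held for Relb against Rel in S534A without treated array 2, where the difference was 0.51.

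**Figure D2:**
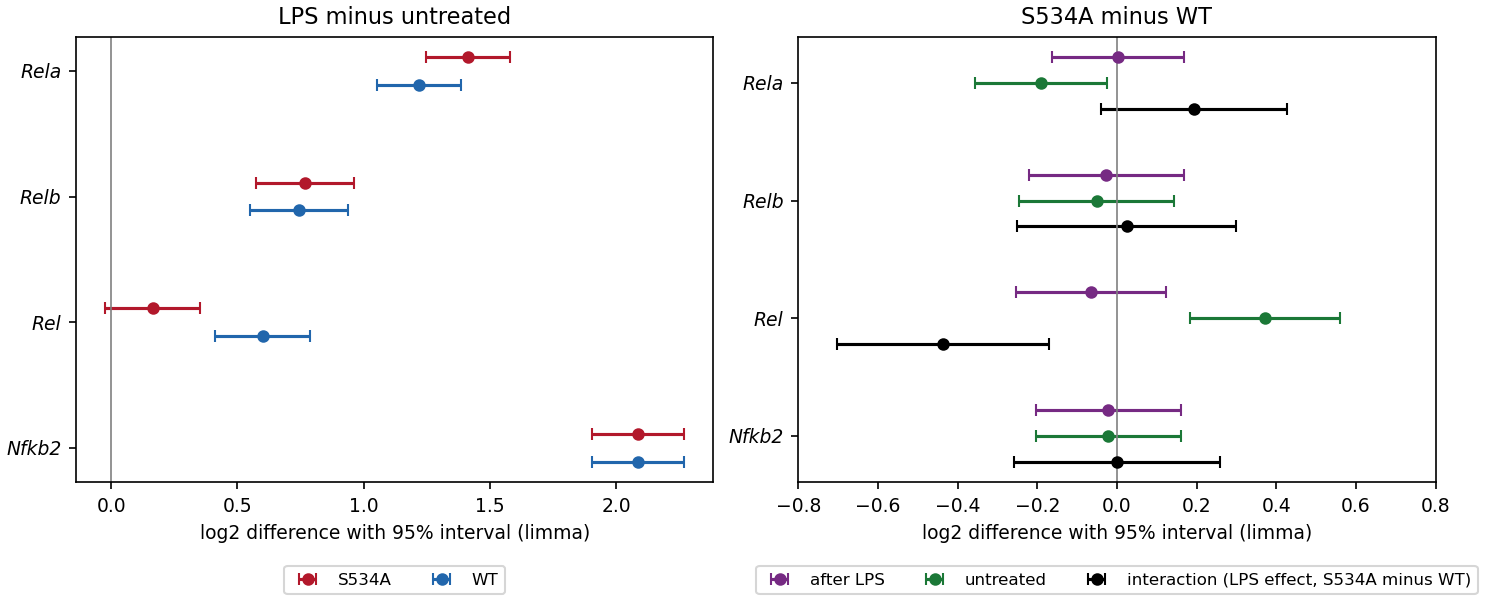
Log2 differences with 95% intervals from limma (n = 4 per group): left, LPS minus untreated in S534A (red) and WT (blue); right, S534A minus WT after LPS (purple), untreated (green) and the interaction (black). On the left the intervals of both genotypes cover nearly the same range for Relb and Nfkb2; on the right Rel is the gene whose untreated difference (0.37) and interaction (-0.44) have intervals furthest from 0.

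The comparison that the series title asks for is whether the substitution changes the response. After LPS the 4 transcripts differed little between S534A and WT livers. The difference was 0.00 for Rela (95% interval -0.16 to 0.17), -0.03 for Relb (-0.22 to 0.17), -0.06 for Rel (-0.25 to 0.12) and -0.02 for Nfkb2 (-0.20 to 0.16), each with a limma adjusted p of 1.00. Both genotypes overlapped for all 4 genes, where 2.03% of all genes did not overlap. No gene of the 15908 passed (0%), and limma gave 477 genes an unadjusted p under 0.05. The bound furthest from 0 is -0.25, for Rel, whose difference ran between -0.13 (without treated WT array 3) and -0.000024 (without treated WT array 1) when single arrays were left out.

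Without treatment, Rel was the subunit gene that differed most between genotypes. Its 4 untreated S534A arrays (8.67 to 8.74) all lay above the 4 untreated WT arrays (8.22 to 8.42), with means of 8.69 ± 0.03 in S534A and 8.32 ± 0.10 in WT (SD, n = 4 each). The difference was 0.37 ± 0.09 (1.29-fold, 95% interval 0.18 to 0.56), rank 128 from the top, with an unadjusted limma p of 0.000668 and an adjusted p of 0.175. It did not pass the threshold over all genes. Of all genes, 5.69% had untreated groups that did not overlap, beside 1 of the 4 members. Fitted with array quality weights, Rel passed (0.35, limma adjusted p = 0.0421), under a setting that called 370 genes in place of 2. Over the other alternatives its limma adjusted p ran over 0.0880 to 0.491.

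Rela pointed the other way without treatment. Its mean was 9.98 ± 0.11 in untreated S534A livers and 10.17 ± 0.15 in untreated WT livers (SD, n = 4 each), and the groups overlapped. The difference was -0.19 ± 0.08 (95% interval -0.36 to -0.02, limma adjusted p = 0.486). With array quality weights it was -0.056 (limma adjusted p = 0.678). Relb differed by -0.05 (-0.25 to 0.14, limma adjusted p = 0.973) and Nfkb2 by -0.02 (-0.20 to 0.16, limma adjusted p = 0.991). Over all genes 0.0126% passed, which are 2 genes, and 1412 had an unadjusted limma p under 0.05. The 2 genes, named after their values were seen, were Igfbp1, which encodes a binding protein of insulin-like growth factors and rises with fasting (2.00 ± 0.26), and Mrps18a, a mitochondrial ribosomal protein gene (-0.53 ± 0.08).

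Untreated Rela levels were set beside circadian clock genes, on 4 arrays per genotype. The part of the clock genes in the Rela values was not tested beyond leaving arrays out. A clock score was taken as the average of Per1, Per2, Per3, Dbp and Tef less that of Arntl. It was 3.33, 3.41, -2.55 and 0.96 on untreated S534A arrays and -1.70, 3.43, -1.77 and 3.47 on untreated WT arrays. The untreated WT arrays of low score, 1 and 3, had the lower Rela levels (10.03 and 10.06), and arrays 2 and 4 of high score had the higher ones (10.27 and 10.34). In S534A the array of lowest score had the lowest Rela level (9.88), while the array with a score of 0.96 had the highest (10.13). Without the 3 untreated arrays of negative score, Rela differed by -0.29 between untreated genotypes (limma adjusted p = 0.483) and its response to LPS was 1.38 in S534A and 1.09 in WT. The untreated Rel difference was 0.38 without the same arrays (limma adjusted p = 0.491).

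The interaction tests the response itself, as the S534A change after LPS less the WT change. For Rel it was -0.44 ± 0.13 (95% interval -0.70 to -0.17), with an unadjusted limma p of 0.00304 and an adjusted p of 0.925. This value and the untreated difference share the untreated arrays of both genotypes. That the LPS effect on Rel passed the threshold in WT and not in S534A is therefore not a shown difference between genotypes. The interaction was 0.19 ± 0.11 for Rela (-0.04 to 0.43, limma adjusted p = 0.951), 0.02 for Relb (-0.25 to 0.30, limma adjusted p = 0.993) and 0.00 for Nfkb2 (-0.26 to 0.26, limma adjusted p = 1.00). The Rela value was 0.028 with array quality weights and 0.29 without the 3 untreated arrays of negative clock score. No gene of the 15908 passed (0%), with 766 at an unadjusted limma p under 0.05. Averaged over both treatments, the genotype difference was 0.15 ± 0.06 for Rel (limma adjusted p = 0.681), -0.09 for Rela, -0.04 for Relb and -0.02 for Nfkb2, and again 0% of genes passed, with 1065 at an unadjusted limma p under 0.05.

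**Figure D3:**
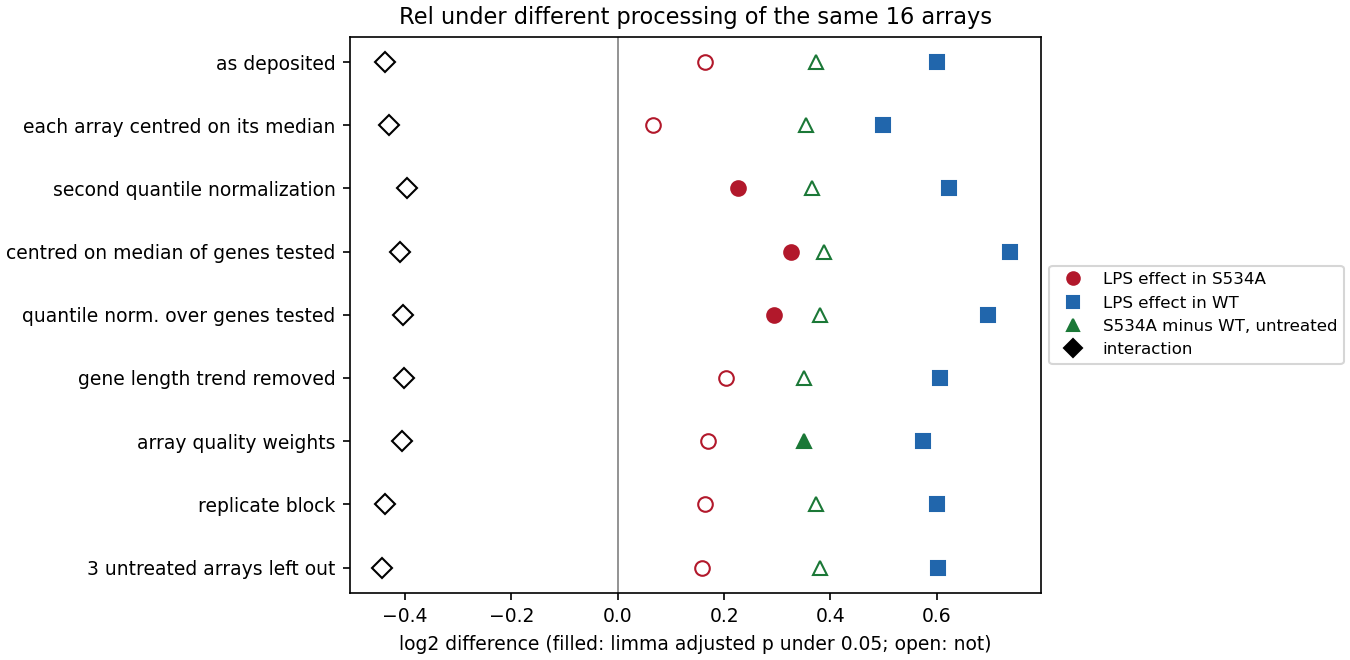
Rel under 9 ways of processing the same arrays: LPS effect in S534A (red circles) and in WT (blue squares), untreated S534A minus WT (green triangles) and interaction (black diamonds), in log2 units, filled where the limma adjusted p was under 0.05. The interaction stays negative, between -0.44 and -0.40, and open throughout, while the LPS effect in S534A runs between 0.07 and 0.33 and fills under 3 scalings.

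Within groups the subunit genes varied less than most. The SD within groups was 0.10 for Rela, 0.13 for Relb, 0.12 for Rel and 0.12 for Nfkb2, against a median of 0.14 over all genes. Over the 16 arrays, which share the split by treatment, Pearson's r was 0.98 between Rela and Nfkb2, 0.97 between Relb and Nfkb2 and 0.94 between Rela and Relb, and 0.67 to 0.74 between Rel and each of the others. After group means were removed, Relb and Nfkb2 had r = 0.52, and the other 5 pairs lay between -0.32 and -0.01. These are descriptions over arrays that also share normalization.

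The genes most like each member over the 16 arrays were named by the highest Pearson's r. For Rela they were Asap3 (0.993), Ptpn1 (0.992), a tyrosine phosphatase, and Daxx (0.992), a histone chaperone. For Relb they were Tmem171 (0.986), Trim14 (0.985) and Adamts6 (0.984). For Nfkb2 they were Slfn4 (0.998), a Schlafen gene of myeloid cells that is induced by interferon, Rnf213 (0.997) and Plekha4 (0.996). For Rel they were Copb2 (0.951), a coat protein of transport vesicles, Ap1g1 (0.936), a clathrin adaptor, and Gtf3c3 (0.935), a subunit of a transcription factor for RNA polymerase III. The genes nearest to Rel had, like Rel, a smaller estimated LPS change in S534A than in WT, though no interaction passed (limma). That change was 0.08 in S534A and 0.22 in WT for Copb2, 0.18 in S534A and 0.40 in WT for Ap1g1, and 0.18 in S534A and 0.53 in WT for Gtf3c3. They were picked for following Rel, so that is no separate evidence. On deviations from group means, the nearest genes to Rela were Rpp21 (0.864), Nfkbia (0.862) and Socs3 (0.845). Nfkbia and Socs3 encode inhibitors of inflammatory signalling. The nearest to the others on deviations were Alyref2 (0.901), Kmt5c (0.877) and Adamts12 (0.866) for Relb, Sypl (0.837), Chek1 (0.817) and Pigg (0.805) for Rel, and Stx4a (0.876), Zcchc18 (0.871) and Lysmd2 (0.848) for Nfkb2. Values on deviations are the highest of very many, were similar in size for all members, and were not compared with chance.

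All 6 measured genes of the IkB family, whose products bind the subunits, passed as higher in S534A and in WT, beside 14.2% of all genes in S534A and 14.9% in WT. Not all of them are inhibitors, as given below for Bcl3 and Nfkbiz. The median change of the 6 genes was 1.54 in S534A and 1.55 in WT. Nfkbie, which encodes IkB-epsilon, rose by 1.91 ± 0.10 in S534A and 1.92 ± 0.10 in WT. Nfkbia, which encodes IkB-alpha, the main brake on p65, rose by 1.25 ± 0.14 in S534A and 1.39 ± 0.14 in WT. Bcl3, a nuclear partner of p50 and p52, rose by 2.05 ± 0.19 in S534A and 1.70 ± 0.19 in WT, and Nfkbiz, a nuclear coactivator, by 1.84 ± 0.11 in S534A and 1.74 ± 0.11 in WT. Nfkbid had the smallest rise, 0.28 ± 0.06 in S534A and 0.18 ± 0.06 in WT.

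Among 10 measured genes of the IKK complex and the kinases above it, 5 were higher and 0 lower in each genotype, with a median change of 0.19 in S534A and 0.41 in WT. Among all genes, 14.2% were higher and 31.2% lower in S534A, and 14.9% were higher and 29.9% lower in WT. The IKK-related kinases rose most, Ikbke by 2.53 ± 0.18 in S534A and 2.61 ± 0.18 in WT and Tbk1 by 2.19 ± 0.09 in S534A and 2.29 ± 0.09 in WT. Map3k8, the kinase TPL2 that p105 holds, rose by 1.83 ± 0.11 in S534A and 1.85 ± 0.11 in WT. Ikbkg, the regulatory subunit NEMO, rose by 0.42 ± 0.08 in S534A and 0.54 ± 0.08 in WT. Ikbkb, the catalytic subunit that phosphorylates IkB, stood at -0.04 ± 0.06 in S534A and 0.05 ± 0.06 in WT and did not pass. Map3k7 (TAK1) and its partners Tab1, Tab2 and Tab3 did not pass in either genotype.

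Receptors and adaptors of the non-canonical arm, the route that processes p100, were higher in 8 of 10 measured genes in each genotype and lower in 0. The shares over all genes were 14.2% higher and 31.2% lower in S534A, and 14.9% higher and 29.9% lower in WT. Cd40, a receptor that starts this arm, rose by 2.15 ± 0.13 in S534A and 2.11 ± 0.13 in WT. The ubiquitin ligases that keep NIK low rose as well, Birc2 by 2.26 ± 0.13 in S534A and 2.35 ± 0.13 in WT and Birc3 by 1.94 ± 0.08 in S534A and 1.78 ± 0.08 in WT. Map3k14, which encodes NIK, rose by 0.58 ± 0.10 in both. The lymphotoxin receptor Ltbr (-0.04 ± 0.08 in S534A and -0.20 ± 0.08 in WT) and the BAFF receptor Tnfrsf13c (0.01 ± 0.12 in S534A and -0.16 ± 0.12 in WT) did not pass.

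Of 15 genes listed as limiting p65 activity, 8 were higher and 3 lower in S534A, and 9 were higher and 2 lower in WT. The list held Copb2, the coat protein gene named above, which is among the 9 higher in WT (0.22 ± 0.06). The shares of all genes were 14.2% higher and 31.2% lower in S534A, and 14.9% higher and 29.9% lower in WT. Tnfaip3, the ubiquitin-editing enzyme A20, rose by 3.30 ± 0.09 in S534A and 3.26 ± 0.09 in WT. Its partner Tnip1 rose by 1.98 ± 0.09 in S534A and 2.04 ± 0.09 in WT. Socs1, a ligase component that can direct p65 to destruction, rose by 2.24 ± 0.09 in S534A and 2.14 ± 0.09 in WT. The SUMO ligase gene Pias4 fell by 0.33 ± 0.08 in S534A and fell by 0.48 ± 0.08 in WT.

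Of 13 measured genes of enzymes that modify p65 or act with it, 4 were higher and 5 lower in S534A, and 5 were higher and 2 lower in WT. For comparison, 14.2% of all genes were higher and 31.2% lower in S534A, and 14.9% were higher and 29.9% lower in WT. Pim1, a kinase that can phosphorylate p65, rose by 2.33 ± 0.19 in S534A and 1.61 ± 0.19 in WT. The coactivator genes Ep300 (0.34 ± 0.11 in S534A and 0.51 ± 0.11 in WT) and Crebbp (0.24 ± 0.09 in S534A and 0.41 ± 0.09 in WT) rose less. Hdac3, a deacetylase that acts on p65, fell by 0.73 ± 0.08 in S534A and fell by 0.51 ± 0.08 in WT. No gene of the pathway lists passed in any of the comparisons between genotypes (limma), including the interaction.

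**Figure D4:**
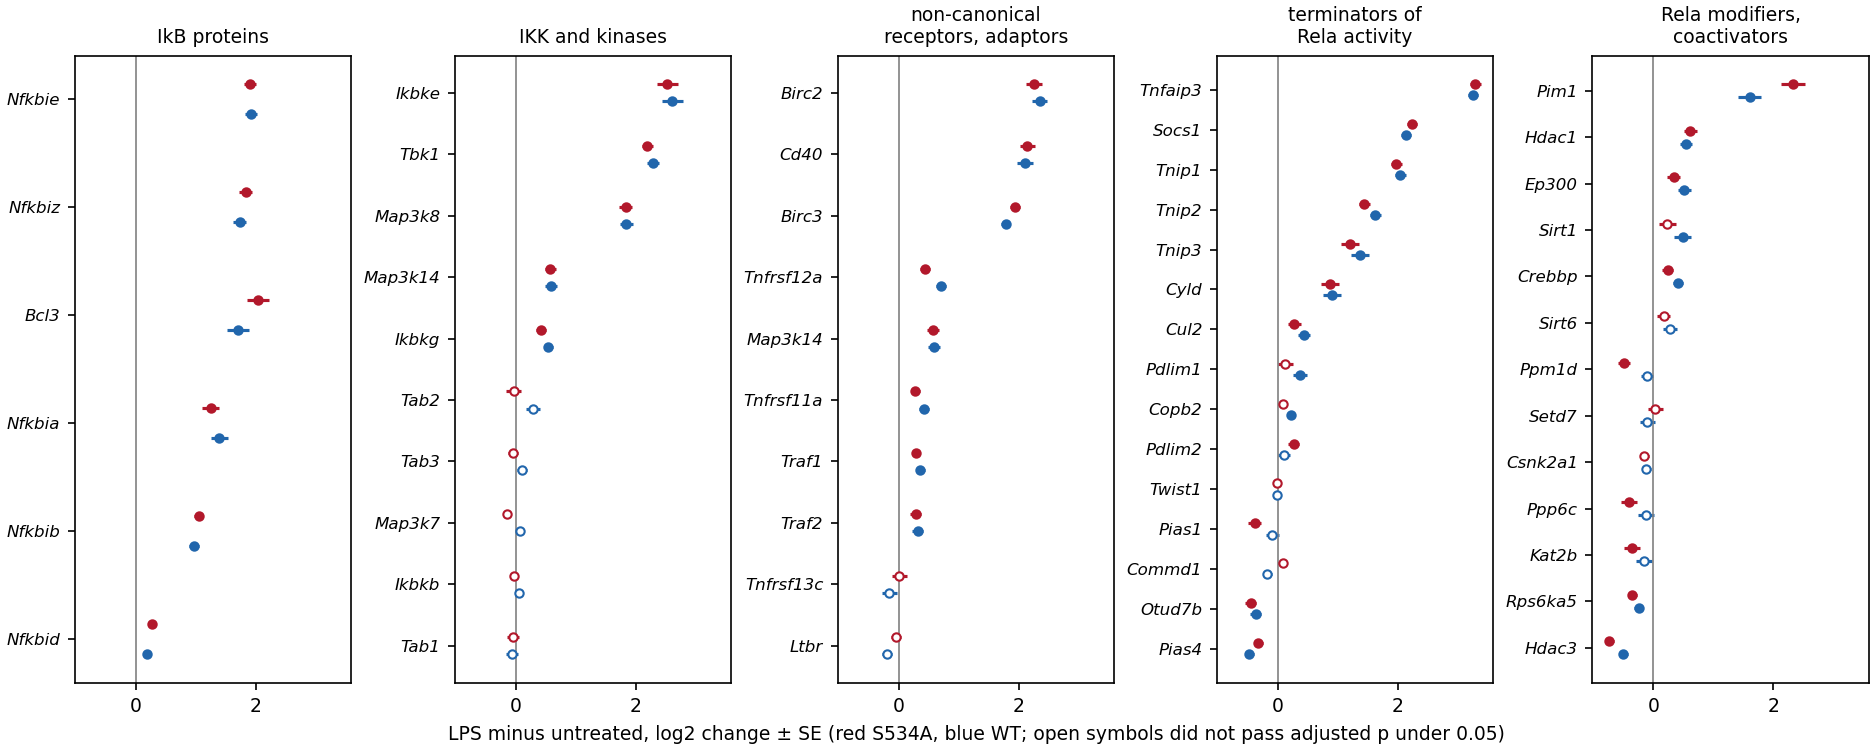
LPS minus untreated for genes of 5 NF-kB pathway lists, log2 change ± SE of the limma fit (red S534A above blue WT, n = 4 per group), filled where the adjusted p was under 0.05. The IkB panel is filled for all 6 genes in both genotypes, while Ikbkb, Map3k7, Tab1, Tab2 and Tab3 have open symbols in both genotypes.

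Several lists of markers of infiltrating and resident cells moved with the same treatment. Beside them, 14.2% of all genes were higher and 31.2% lower in S534A, and 14.9% were higher and 29.9% lower in WT. The 12 neutrophil markers were all higher after LPS in both genotypes, and their mean log2 level ran over 7.80 to 8.16 in S534A with LPS against 5.95 to 6.06 untreated, and over 7.73 to 8.36 in WT with LPS against 5.92 to 6.12 untreated. Of 11 Kupffer cell markers 9 were lower and 1 higher in both genotypes, and of 9 markers of sinusoidal endothelium 7 were lower and 2 higher. Of 8 stellate cell markers 6 were lower in S534A and 5 in WT. Markers of monocytes and dendritic cells were split, with 2 of 9 higher and 2 lower in each genotype. Of 5 B cell markers 2 were lower in S534A and 3 in WT, and 0 were higher. Of 5 T and NK cell markers 1 was higher in each genotype, and 0 were lower in S534A and 1 in WT. The part of these shifts in the rises of the subunit genes was not tested.

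Mean marker levels of leukocytes overlapped between untreated genotypes, and their part in the untreated Rel difference was not tested. They were 5.95 to 6.06 in untreated S534A and 5.92 to 6.12 in untreated WT for neutrophils, 6.08 to 6.33 in S534A and 6.18 to 6.26 in WT for 5 B cell markers, and 6.03 to 6.18 in S534A and 6.02 to 6.19 in WT for 5 T and NK cell markers. For 9 markers of monocytes and dendritic cells they were 6.36 to 6.51 in S534A and 6.42 to 6.51 in WT. Kupffer cell markers averaged 8.77 to 9.22 in untreated S534A and 9.03 to 9.47 in untreated WT. The median S534A minus WT difference of the Kupffer markers was -0.15 untreated and -0.24 after LPS, against -0.0019 and -0.0029 over all genes. Untreated, that median was 0.02 for neutrophils, -0.07 for B cells, 0.002 for T and NK cells and -0.04 for monocytes and dendritic cells. No marker of these lists passed in a comparison between genotypes (limma).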

How the data were processed

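The deposited log2 values, 1 per probe set and array, carry RMA as the tool in the submitters' processing notes, with no version given in the sources used here. Per the labels' protocols, column-purified RNA was amplified, labelled with biotin and hybridised to whole-transcript arrays. Of 35556 probe sets, 21789 had 1 gene symbol, 1621 several and 12146 none, and 21698 matched RefSeq genes of GRCm38.p6 by identifier. Probe sets above the 30th percentile of the array on at least 4 arrays were kept (26037), and the probe set of highest mean stood for a gene (15908 genes). All 16 arrays were fitted together by limma (version 3.58.1, R 4.3.3), using lmFit, contrasts.fit and eBayes on 4 group means, two-sided, with Benjamini-Hochberg adjustment over all genes at 0.05. That left 12 residual and 4.28 prior degrees of freedom, with a median SE of 0.099 for an LPS effect and 0.140 for the interaction. The script was tested on simulated data. Signal over background was not assessed. Precision is limited by the number of arrays.

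The subunit genes and the lists were chosen with earlier results of these data known. Named genes are the members, genes of the fixed lists, and for each member the 3 genes of highest Pearson's r over the arrays and the 3 of highest r on deviations from group means, leaving out predicted genes, clones and small RNAs. Outside this rule, the clock genes of the score, Igfbp1 and Mrps18a are named. The 3 untreated arrays left out for negative clock score were picked by their values in these data. Promoter windows were searched and figures drawn with Python 3.11.15 and matplotlib 3.10.9. Group and replicate numbers follow the sample titles. Alternatives covered the filter, the choice of probe set, scaling, array weights, the variance model, the replicate block, the arrays entered and leaving out each array. Centring and quantile normalization on the genes tested and removal of the gene length trend per array were chosen after seeing the data.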

Additional observations from a re-analysis of the deposited data

Results flagged for a closer look

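The highest of the 4 untreated S534A arrays for Rel, array 1 at 8.74, lay apart from the other 3, which stood at 8.67, 8.67 and 8.68. It was picked out because its gap to the nearest array was 0.874 of the group's range, above the limit for 4 samples. The whole range of that group was 0.07, against 0.20 in untreated WT livers. Without this array the untreated difference in Rel was 0.36. Chance picks out about 1 in 20 groups, and 16 groups of 4 arrays (4 genes) were examined.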

How the results depend on the processing

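Rela, Relb and Nfkb2 passed as higher after LPS in both genotypes under all 30 alternatives, and Rel did in WT. In S534A the Rel difference ran over 0.07 to 0.33 and passed with a second quantile normalization (0.23), centring on the genes tested (0.33) and quantile normalization of those genes (0.29). Between genotypes the values near 0 changed sign. After LPS, Rela gave -0.0094 with arrays centred on their median and -0.027 with array quality weights, Relb 0.016 centred on the genes tested, and Nfkb2 0.0075, 0.021 and 0.016 under the second quantile normalization, centring on the genes tested and quantile normalization of those genes. The Nfkb2 interaction gave 0.034, 0.027 and 0.033 under those settings and 0.0061 with arrays centred on their median. Untreated Nfkb2 gave 0.0047 with the gene length trend removed and 0.062 without the 3 untreated arrays of negative clock score, and its averaged difference 0.020 without these and 0.0075 centred on the genes tested. With array quality weights Rela gave -0.056 untreated, 0.028 in the interaction and -0.041 averaged over treatments, against -0.19, 0.19 and -0.09 as reported. Without the 3 arrays these were -0.29, 0.29 and -0.14. Untreated Rel gave 0.35 and passed with array quality weights, 1 member in place of 0. Genes passing untreated, 2 as reported, numbered 4 with arrays centred on their median, 1 centred on the genes tested, 7 with quantile normalization of those genes, 370 with array weights, 4 with a trended and robust eBayes, 0 with only the groups compared and 1 without the 3 arrays. Array weights gave 3 genes in the interaction and 1 for the averaged genotype, and leaving out the 3 arrays gave 1 for the averaged genotype.

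With the replicate block, 0 genes passed untreated, Rel had an interaction of -0.44, and no member's call changed. The numbers were not taken as pairs, since deviations of same-numbered arrays from group means correlated over genes between -0.49 and 0.59, above 0.1 in 9 of 24 pairs.

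Leaving out each array in turn gave, after LPS, -0.024 to 0.029 for Rela, -0.070 to 0.012 for Relb, -0.13 to -0.000024 for Rel and -0.079 to 0.040 for Nfkb2; untreated, -0.13 to 0.020 for Relb, -0.086 to 0.030 for Nfkb2 and 0 to 7 genes; in the interaction, -0.047 to 0.10 for Relb, -0.058 to 0.064 for Nfkb2 and 0 to 2 genes; averaged, -0.078 to -0.0032 for Relb, -0.054 to 0.0095 for Nfkb2 and 0 to 3 genes. Of these, the 7 genes came without treated WT array 2 and the 3 without untreated WT array 2. The unequal LPS effects ran over 0.51 to 0.69 (Relb minus Rel, S534A), 0.39 to 0.58 (Rela minus Relb, WT) and 0.55 to 0.70 (Rela minus Rel, WT). The unequal effects in WT without the 3 arrays were not run, since 15 arrangements cannot reach 0.05. The cause of these changes was not tested.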

Other observations

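The 20 measured genes nearest to Rela on chromosome 19 held no gene past the threshold in any comparison between genotypes (limma, 0 of 20 in each). Their median S534A minus WT difference was -0.10 untreated, -0.06 after LPS and -0.08 averaged over treatments. Over all genes these medians were -0.0019, -0.0029 and 0.0022. Malat1, a long nuclear RNA and the neighbour of lowest p without treatment, went against the median of the 20. It was higher in untreated S534A than in untreated WT livers by 0.44 ± 0.08 (limma adjusted p = 0.117). Its LPS effect was 0.63 ± 0.08 in S534A and 1.04 ± 0.08 in WT, with an interaction of -0.41 ± 0.11 (limma adjusted p = 0.925), side by side with the Rel values of 0.37 and -0.44. After LPS, 2 of the 20 neighbours were higher and 8 lower in S534A, and 2 were higher and 9 lower in WT. Over all genes, 14.2% were higher and 31.2% lower in S534A, and 14.9% were higher and 29.9% lower in WT.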
